A study of Mus musculus with 20 samples.

Results

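In OCT-embedded sections of mouse brain at embryonic day E12.5, RNA next to the stress granule protein G3BP1 was marked by base editing, and the libraries made with anti-G3BP1 were compared with those made with a non-specific rabbit IgG. The comparison took the 4 E12.5 brain libraries of the 20 in the series, 2 per antibody. All tissue was wild-type (WT) C57BL/6J. Both groups are labelled fresh frozen with 0.2% FA as the fixation, and both received a guinea pig anti-rabbit secondary antibody, so that by label only the primary antibody set them apart. The assay, MAPIT-seq, binds an antibody to its target in the section and brings to it the fusion rAPOBEC1-pAG-hADAR2. Its pAG part binds antibodies, rAPOBEC1 deaminates cytosine so that it reads as T, and hADAR2 deaminates adenosine so that it reads as G. Polyadenylated RNA was then sequenced. Edited reads therefore mark RNA near the target, and the IgG libraries give the background of the same enzymes. No untreated E12.5 brain library was among the samples, and the labels do not say that the replicates came from separate embryos, so that the spread between replicates may be partly technical.

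G3BP1 is an RNA-binding protein of the cytoplasm that dimerises, binds Caprin1 or USP10 through the same domain, and nucleates stress granules when untranslated messenger RNA (mRNA) builds up. Its close relative G3BP2 can stand in for it. In neurons, G3BP1 is known from RNA granules that hold mRNA in the axon. At E12.5 the brain holds dividing progenitors beside young neurons that extend axons.

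A site entered the comparison when it had 10 or more reads in all 4 libraries, and its edited share is the number of edited reads over all reads. This left 126802 sites, of which 42679 could show A-to-G and 84123 C-to-T, and 96684 of them had no edited read in any library. The kept sites had a mean of 23.1 and 68.9 reads with IgG, against 55.3 and 64.9 with anti-G3BP1, so IgG replicate 1 was the shallowest. By TPM, the share of transcripts scaled for gene length and library size, all 10 neuron markers and all 8 progenitor markers were at 1 TPM or more in every library, and the single markers Afp (liver), Myod1 (muscle), Matn1 (cartilage) and Krt14 (skin) were at 0 in all 4. Some markers assigned to other tissues were nonetheless read. The 9 cartilage and skeletal muscle markers summed to 399 to 437 TPM, of which 271 to 310 TPM were the cartilage collagen Col2a1. Sox9, also listed among the progenitor genes below, was at 91.7 to 121 TPM, and no other of the 9 was above 5.13 TPM. The 6 epithelial markers summed to 20.9 to 54.5 TPM and the 7 heart and liver markers to 9.19 to 13.2 TPM. Erythroid markers summed to 8929 and 9424 TPM with IgG against to 11148 and 12562 TPM with anti-G3BP1, so blood cell RNA was in every library and summed higher with anti-G3BP1. The part of these cells in the editing results was not tested. Lineage factors of glutamatergic and GABAergic neurons summed lower with anti-G3BP1, at 237 and 230 TPM with IgG against 160 and 155 TPM. So did midbrain and hindbrain factors, at 334 and 407 TPM against 297 and 272 TPM. The sums of the neuron markers and of the progenitor markers overlapped between the antibodies. The part of these differences in the editing results was not tested either.

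Sites edited in both anti-G3BP1 libraries and in neither IgG library are described first. They were chosen for these counts, so the absence of edited reads with IgG was set by the choice and is not a result. The 9 below are examples, taken from the 12 named by edited reads with at most 1 site per gene. Each is written 5′ to 3′ along the transcript, with 10 bases on either side, in GRCm38 coordinates, and the capital is the edited base.

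Snx1, chr9:66088522-66088542, minus strand, coding: cctgaggcaaAggccatctcc
Anp32b, chr4:46468766-46468786, plus strand, coding: gacaaagaggAagaggatgaa
Dnaja1, chr4:40733546-40733566, plus strand, 3′ untranslated region (UTR): tatatataaaCagaaaacatg
Mzt1, chr14:99034689-99034709, minus strand, 3′ UTR: aaactaggaaAttatatttag
Iars, chr13:49734054-49734074, plus strand, 3′ UTR: ttatttctatActggagttct
Tead2, chr7:45233463-45233483, plus strand, 3′ UTR: acacagtgttAgggatgtaat
Trim8, chr19:46515935-46515955, plus strand, 3′ UTR: tcttaactcaAggcactgggc
Gata3, chr2:9857661-9857681, minus strand, 3′ UTR: cacccactgaAgatctgagaa
Tnrc6c, chr11:117762473-117762493, plus strand, 3′ UTR: gctcgctctcAggaacgccag

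The site in Snx1, which encodes a sorting nexin of endosomes, was edited in 23 of 136 reads (16.9%, 95% Wilson interval 11.5 to 24.1%) and 17 of 82 reads (20.7%, 13.4 to 30.7%) with anti-G3BP1, and in 0 of 28 and 0 of 71 reads with IgG. The C-to-T site of Dnaja1, an Hsp40 co-chaperone, was edited in 17 of 69 and 18 of 100 reads with anti-G3BP1 and in 0 of 21 and 0 of 74 with IgG. Both sites were edited at a like level in the 2 anti-G3BP1 libraries. The 3′ UTR site of Tnrc6c, a GW182 protein of the microRNA silencing complex, had 6 of 71 and 11 of 112 edited reads, against 0 of 19 and 0 of 45. In Tead2, a transcription factor of the Hippo pathway, the counts were 18 of 198 and 7 of 139 against 0 of 80 and 0 of 220. Gata3, a transcription factor of sympathetic and some midbrain and hindbrain neurons, had 11 of 78 and 7 of 114 against 0 of 15 and 0 of 98.

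Other sites of the 9 were far apart between the anti-G3BP1 replicates. The site of Mzt1, a small protein of the microtubule-nucleating gamma-tubulin ring, was edited in 27 of 66 reads in replicate 1 and 3 of 60 in replicate 2. That of Iars, the isoleucyl-tRNA synthetase of the cytosol, was edited in 3 of 39 and 22 of 48 reads, with the higher value in replicate 2. Anp32b, a histone chaperone, had 25 of 255 and 3 of 297, and Trim8, a ubiquitin ligase, had 16 of 113 and 7 of 126. Of the named sites not shown, that of Cbl had 23 of 63 and 2 of 62, and that of Actr1a 19 of 73 and 2 of 84. The site of Tcf7l2, also not shown, had closer replicates and is given below. Over the 12 sites, a count of 0 in the reads of both IgG libraries together allowed a share of 0.578% to 7.89% per site, and in IgG replicate 1 alone of 2.44% to 27.3%. These limits and intervals cover counting error only, and take no account of the choice of the sites by these same counts.

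In all, 328 sites had 2 or more edited reads in each anti-G3BP1 library and none in either IgG library, against 12 sites with the antibodies exchanged and 104 sites edited in both. Of the 328, 274 were A-to-G and 54 C-to-T, and of the 12, 3 were A-to-G and 9 C-to-T. The 328 lay in 295 genes, with 220 in 3′ UTRs and 80 in coding sequence. At these sites the median read number was 23.5 and 70.5 in the IgG libraries, and depth moves the count: with each site thinned to the same depth in every library, 72 sites against 4 met the criterion, with 74 in both. With 3 or more edited reads required, it was 89 against 0. The counts were 194 against 9 over sites of at least 20 reads per library. With 1 library of an antibody left out, an edit need not recur in that antibody, and the count follows the side that keeps 1 library. It was 358 against 3591 without IgG replicate 1 and 610 against 985 without IgG replicate 2, with IgG alone then the larger. It was 5291 against 22 without anti-G3BP1 replicate 1 and 5492 against 13 without replicate 2.

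**Figure D1:**
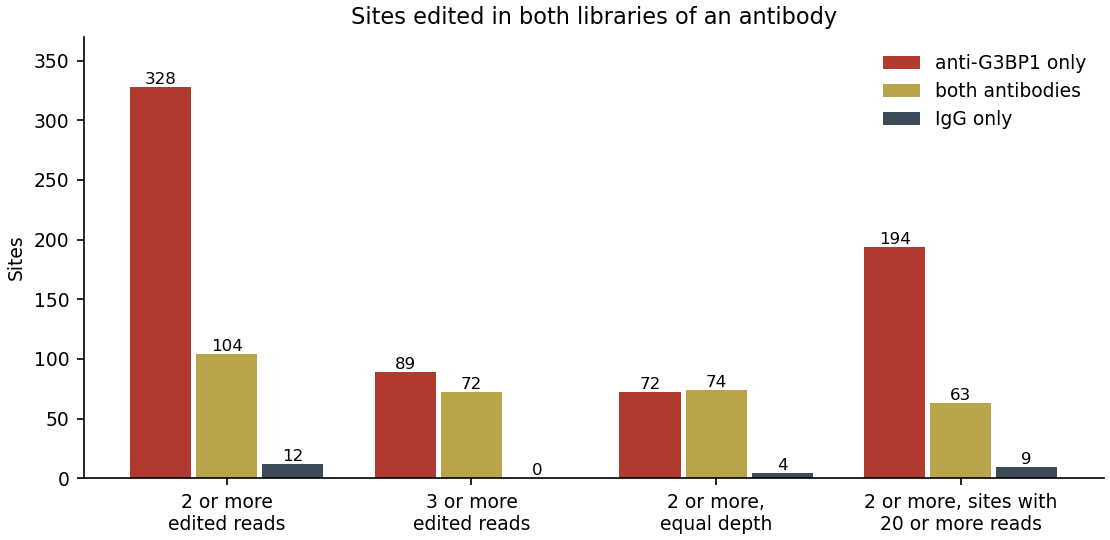
Number of sites (vertical axis) with edited reads in both libraries of anti-G3BP1 only, of both antibodies, or of IgG only, at 4 criteria (horizontal axis). Anti-G3BP1 only exceeded IgG only at each criterion, from 328 against 12 to 72 against 4 at equal depth.

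H1f0, which encodes a linker histone of cells leaving the cell cycle, held 4 of the 328 sites, and Tcf7l2, a transcription factor of Wnt signalling, held 3. No other gene held more than 2. The 4 sites of H1f0 all lay in its 3′ UTR, at positions 79029658, 79029659, 79029885 and 79030324 of chromosome 15. That at 79029885 was edited in 11 of 62 and 3 of 76 reads with anti-G3BP1, and those at 79029658 and 79029659 are adjacent adenosines. The most edited Tcf7l2 site had 7 of 513 and 11 of 590 edited reads against 0 of 123 and 0 of 396, and it lies in a run of adenosines, aaaaagaaaaAaaaaaacccc (chr19:55933238-55933258, plus strand).

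Summed over all kept sites, the edited share was 0.198% and 0.214% with IgG against 0.429% and 0.374% with anti-G3BP1. Both anti-G3BP1 libraries were above both IgG libraries, and the ratio of the means was 1.95. The exact two-sided permutation test gave p = 0.333, the smallest that 2 libraries against 2 allow. With all libraries thinned to equal depth at each site the ratio was 1.74.

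A-to-G sites differed more between the antibodies than C-to-T sites. The share at A-to-G sites was 0.252% and 0.301% with IgG against 0.720% and 0.577% with anti-G3BP1 (ratio 2.34). At C-to-T sites it was 0.170% and 0.169% against 0.281% and 0.271% (ratio 1.63). Thus C-to-T replicates lay closer to each other, while A-to-G gave the wider gap. The ratio was similar across mRNA regions, at 1.96 in 3′ UTRs, 1.91 in coding sequence and 1.86 in 5′ UTRs. In exons of non-coding transcripts it was 1.73, and 1.89 once sites under pseudogenes were left out. The 656 mitochondrial sites had 0.0785% and 0.0895% with IgG against 0.251% and 0.146% with anti-G3BP1 (ratio 2.36), so transcripts made inside mitochondria had a gap as well. By quartile of the gene's mean TPM the ratio was 1.98, 2.06, 1.98 and 1.91 from the lowest to the highest quartile.

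**Figure D2:**
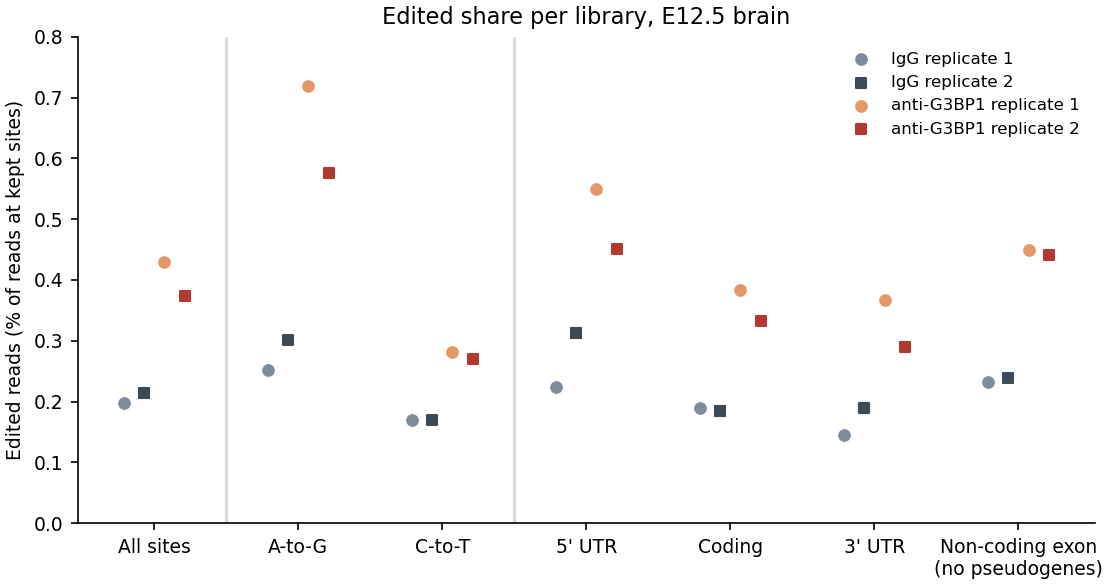
Edited reads as a percentage of reads at kept sites (vertical axis) in each of the 4 libraries, for all sites, by kind of edit and by transcript region, with non-coding exons drawn without pseudogene sites (horizontal axis). Points are libraries, with no error bars. In every column drawn both anti-G3BP1 libraries lie above both IgG libraries, and the gap between group means is widest for A-to-G.

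The base before the edited one separated the sites further. ADAR2 is known to edit poorly after a G, and rAPOBEC1 prefers an A or T before the cytosine. A-to-G sites after a T had 0.222% and 0.333% with IgG against 0.972% and 0.682% with anti-G3BP1 (ratio 2.98). After an A the ratio was 2.69, after a C 2.17 and after a G 1.65. C-to-T sites after an A had the widest gap of their kind, 0.148% and 0.195% against 0.344% and 0.291% (ratio 1.85), and those after a G the narrowest (1.40). Of the triplets with the edited A in the middle, TAT (ratio 3.29) and TAC (3.26) stood highest and GAG (1.60) lowest, and among those with the edited C, GCT had 0.181% and 0.124% against 0.169% and 0.180%, so that the antibodies overlapped there.

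**Figure D3:**
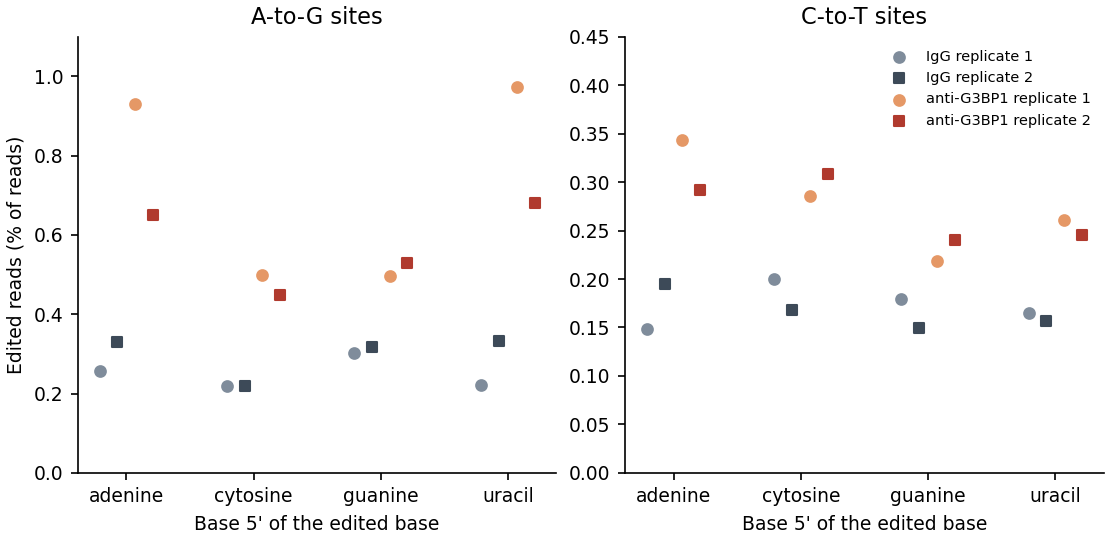
Edited reads as a percentage of reads (vertical axes, of different range) by the base 5′ of the edited base, for A-to-G sites (left) and C-to-T sites (right). Points are the 4 libraries. The gap between antibodies at A-to-G sites is widest after uracil, read as T, and narrowest after guanine.

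The 328 sites differed from the kept sites in the same bases. They were chosen for edited reads in the same anti-G3BP1 libraries, so this is not a separate observation from the shares above. Of the 274 A-to-G sites, 36.1% followed a T and 34.3% an A, against 22.5% and 28.0% of kept A-to-G sites. Of the 54 C-to-T sites, 70.4% followed an A, against 33.7% of kept C-to-T sites, and the window of 10 bases on either side of them was 56.3% A or T, against 48.4%.

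Edited and unedited reads were summed over the kept sites of each gene, and 5562 genes had at least 50 of these reads per library. A read that covers several kept sites was counted at each of them, so the counts of a gene are not all independent reads. The antibodies were compared with a moderated quasi-binomial model. No gene passed an adjusted p of 0.05 in either direction (0% higher and 0% lower). By unadjusted p under 0.05 there were 163 genes higher (2.93%) and 7 lower (0.126%), fewer in all than 5% of the genes. Edited reads were few: the median gene had 0 in IgG replicate 1 and 2 in each other library, and 595 genes had none. Both anti-G3BP1 shares lay above both IgG shares in 1535 genes (27.6%) and below them in 190 (3.42%), and the median log2 odds ratio over all genes was 0.61. No gene differed from that median either, at an adjusted p of 0.05. Other tools called 1 gene higher (edgeR) or 1 lower (limma on the empirical logit). Without anti-G3BP1 replicate 1 the quasi-binomial model called 11 genes higher, and without replicate 2 it called 37, the lone library then being taken to vary like the IgG pair.

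Chd7, the chromatin remodeller mutated in CHARGE syndrome, came closest. Its transcript on chromosome 4 (GRCm38, 8690406 to 8867659) was edited in 1 of 1495 and 29 of 4979 reads with IgG against 186 of 5685 and 39 of 5278 with anti-G3BP1. The groups did not overlap, but replicate 1 of anti-G3BP1 stood at 3.27% and replicate 2 at 0.739%. The log2 odds ratio was 2.15 ± 0.51 (SE, n = 2 libraries per antibody), with an adjusted p of 0.124 in the quasi-binomial model fitted with limma's moderation. It passed the threshold over sites of at least 20 reads, over sites with an edited read, or with 0.5 reads added. With A-to-G sites alone the smallest adjusted p of any gene in the quasi-binomial model was 0.831. It was 0.966 at equal depth and 0.821 without the 100 most edited sites, so Chd7 did not pass there. The TPM of Chd7 was 74.2 and 73.5 with IgG against 85.9 and 68.2 with anti-G3BP1, so expression overlapped. Of its edited reads, 25.1% fell on 1 A-to-G site of the 3′ UTR, at position 8866941, with 0 of 42 and 2 of 108 edited reads against 51 of 141 and 11 of 128.

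The other 14 genes of the 15 with the smallest unadjusted p and no overlap had adjusted p from 0.498 to 0.826, and their values are a description. Hsp90ab1, the constitutive cytosolic Hsp90, had 3 of 5571 and 19 of 16853 edited reads with IgG against 87 of 13700 and 34 of 15915 with anti-G3BP1. Cct6a, a subunit of the TRiC chaperonin that folds tubulin and actin, had 1 of 1440 and 14 of 3968 against 86 of 3454 and 23 of 3984. All 43 kept sites under this symbol lay in exons annotated as non-coding. Of the 86, 62 fell on 2 sites 3 bases apart, which had no edited read in the other 3 libraries. In both chaperone genes, as in Chd7, anti-G3BP1 replicate 1 was the higher. Leprot, a small endosomal membrane protein, had 3 of 352 and 2 of 1287 against 12 of 812 and 56 of 850, with replicate 2 the higher. Of the 56, 27 fell on 1 site edited in that library alone. The other 29 fell on 1 A-to-G site, which had 2 of 10 and 1 of 46 edited reads with IgG against 5 of 38 and 29 of 55.

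Among the 15 were the imprinted genes Grb10, Mest and H19. Grb10, an adaptor that restrains insulin and IGF signalling, had edited shares of 0.140% and 0.170% with IgG against 0.883% and 0.368% with anti-G3BP1. Mest, a paternally expressed hydrolase, had 0.202% and 0.612% against 1.54% and 0.969%. H19, the maternally expressed long non-coding RNA, had 0.112% and 0.187% against 0.519% and 1.26%.

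The genes of RNA processing among the 15 had closer replicates. Srsf1, an SR splicing factor, had 0.117% and 0.118% with IgG against 0.479% and 0.341% with anti-G3BP1, a log2 odds ratio of 1.76 ± 0.58 (SE). Ddx17, an RNA helicase, had 0.0639% and 0.0578% against 0.212% and 0.300%. Sf3b2, a subunit of the U2 small nuclear ribonucleoprotein, had 0.150% and 0.290% against 0.781% and 0.978%. In these 3 genes the higher anti-G3BP1 library was under 1.5 times the lower. By contrast, Dpf2, a subunit of the BAF remodeller, had 0.602% and 2.52% with anti-G3BP1, and 49 of the 61 edited reads behind them came from 1 site of replicate 2. The non-coding Gm14866 had 11.3% and 0.870%, with 48 edited reads of 81 at 1 site of replicate 1, and its estimate turned negative (-0.63) without the 100 most edited sites. In TPM, 8 of the 15 genes overlapped between the antibodies, 2 were higher (Cct6a and Sf3b2) and 5 lower (mt-Nd5, Ddx17, Grb10, Leprot and Srsf1), with log2 changes from -0.47 to 0.38, and none was called by limma.

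**Figure D4:**
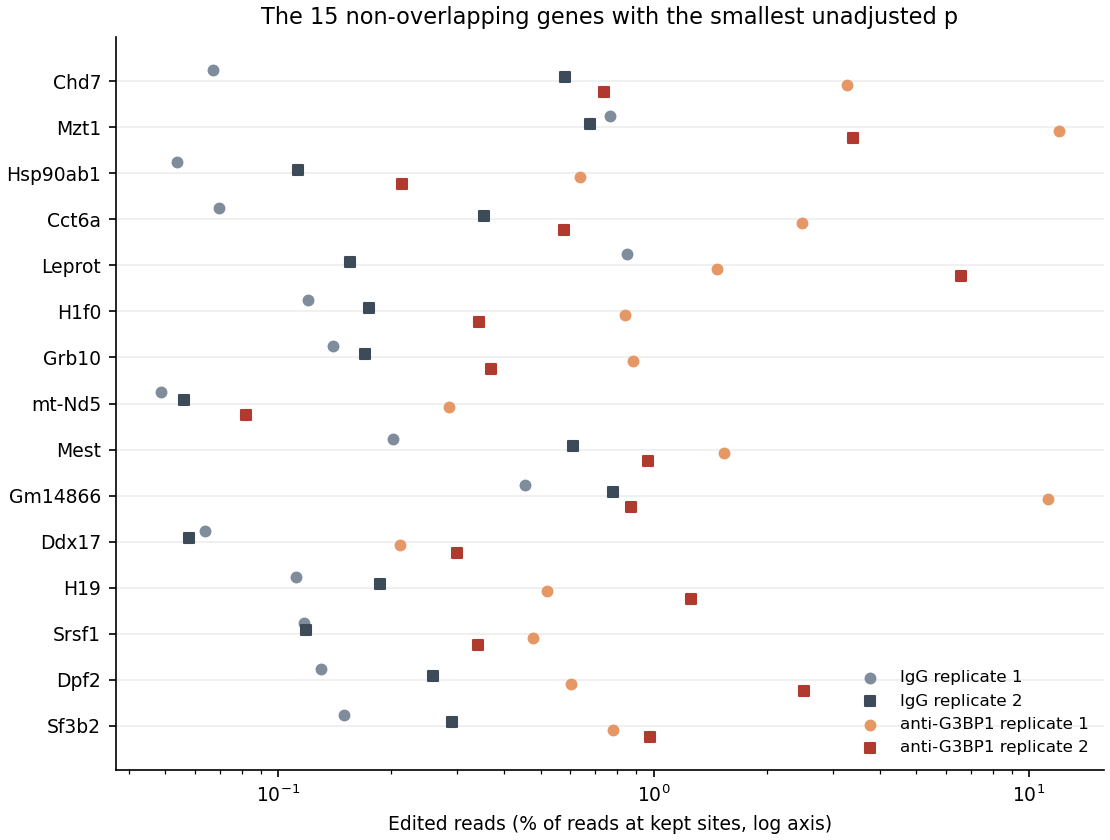
Edited reads as a percentage of reads at kept sites (horizontal log axis) for the 15 genes with the smallest unadjusted p among those whose groups did not overlap. Points are the 4 libraries. The replicates of anti-G3BP1 lie close in Srsf1, Ddx17 and Sf3b2 and far apart in Gm14866.

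The transcripts of G3BP1, G3BP2 and Caprin1 had 0 to 18 edited reads per library. G3bp1 itself had 0 of 1305 and 10 of 4624 edited reads with IgG against 18 of 4422 and 15 of 4509 with anti-G3BP1 (log2 odds ratio 1.09 ± 0.80, adjusted p = 0.826 in the quasi-binomial model). G3bp2 had 0 of 1024 and 5 of 3098 against 13 of 2135 and 5 of 2530. Caprin1, which G3BP1 binds, had 2 of 1469 and 3 of 4449 against 14 of 2805 and 16 of 4403. All 3 had anti-G3BP1 shares above IgG, but G3bp2 had 5 edited reads in replicate 2 of either antibody. Pabpc1, the cytoplasmic poly(A)-binding protein found in stress granules, had 0.176% and 0.165% with IgG against 0.583% and 0.593% with anti-G3BP1. By gene this was the closest pair of anti-G3BP1 replicates among the named genes of this list. However, 51.9% of its edited reads fell on 1 A-to-G site, where the anti-G3BP1 replicates lay further apart. That site had 1 of 40 and 3 of 131 edited reads with IgG against 15 of 139 and 8 of 157. Prrc2c, which takes part in stress granule formation, had 0.108% and 0.257% against 0.843% and 1.86%, and 36 of its 45 edited reads in replicate 2 fell on 2 sites with none in the other 3 libraries. Of the 35 tested of 38 genes in the list of G3BP partners and stress granule proteins, 13 lay higher without overlap (27.6% of all genes did), 2 lower and 20 overlapped. The median log2 odds ratio was 0.96, beside 0.61 for all genes. None was called.

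The hnRNP and SR splicing factors had 25 of 37 tested genes higher without overlap (67.6%, beside 27.6% of all genes). None was lower, and the median log2 odds ratio was 1.05. The reads of this list summed to 0.141% and 0.181% with IgG against 0.381% and 0.313% with anti-G3BP1. Hnrnph1, which regulates splicing through G-rich elements, had 0.174% and 0.175% against 0.550% and 0.615%. Ddx5, a helicase paired with Ddx17, had 0.130% and 0.108% against 0.333% and 0.266%. No member was called by the quasi-binomial model, while 9 had an unadjusted p under 0.05.

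The chaperones had 19 of 29 tested genes higher without overlap (65.5%, beside 27.6% of all genes) and none lower. Their median was 1.14, with 6 genes at an unadjusted p under 0.05. Their summed share was 0.139% and 0.143% with IgG against 0.498% and 0.304% with anti-G3BP1. Calr, the calcium-binding chaperone of the endoplasmic reticulum (ER), had 3 of 2657 and 4 of 6636 edited reads against 31 of 6180 and 25 of 7370. Dnaja2, an Hsp40 co-chaperone, had 0 of 187 and 2 of 539 against 6 of 456 and 41 of 585, and 40 of the 41 fell on 1 coding site. Tested genes had a median of 17666 reads over the 4 libraries in the splicing list and 11594 in the chaperone list, against 2345 over all genes, and the part of this depth in the counts was not tested.

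Neuronal lists stood in the same direction. The cytoskeleton and transport list had 20 of 39 tested genes higher without overlap (51.3%, beside 27.6% of all genes) and 1 lower (median 1.16). Marcksl1, an actin-binding protein of growing neurites, had 0.0406% and 0.0880% with IgG against 0.180% and 0.211% with anti-G3BP1. Stmn2, which destabilises microtubules in growth cones, had 0 of 1228 and 5 of 3536 edited reads against 4 of 2586 and 42 of 3893, and its C-to-T sites alone gave a negative log2 odds ratio (-1.16). Dpysl4, a collapsin response mediator, had 0 of 1705 and 3 of 5189 against 36 of 4284 and 8 of 4438, and 26 of the 36 fell on 1 coding site that had 0 of 10 in replicate 2. Axon guidance and adhesion genes had 16 of 28 higher (57.1%) and none lower (median 1.25). Plxna1, a semaphorin receptor, had 0.136% and 0.391% against 0.802% and 0.653%, with a negative log2 odds ratio (-1.18) at C-to-T sites alone. Of its edited reads, 69.3% fell on 1 A-to-G site, with 1 of 24 and 17 of 92 against 31 of 116 and 21 of 89. Robo1, the Slit receptor, had 0 of 946 and 5 of 2662 against 14 of 1923 and 13 of 2478. No gene of either list was called.

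Among progenitor genes, 11 of 32 tested lay higher without overlap (34.4%, beside 27.6% of all genes) and 2 lower (median 0.74). Msi1, an RNA-binding protein of neural stem cells, had 0.307% and 0.287% with IgG against 0.871% and 0.796% with anti-G3BP1, with close replicates in both groups. Sox11, an SRY-box factor of young neurons, had 0.0758% and 0.112% against 0.266% and 0.160%. The cell cycle list had 11 of 26 higher (42.3%) and none lower (median 0.87). Pcna, the sliding clamp of DNA replication, had 0 of 190 and 1 of 462 against 7 of 347 and 7 of 375. Cdk1, the mitotic kinase, lay the other way on average, with 11 of 246 and 4 of 502 against 0 of 601 and 7 of 672, and the 11 edited reads of IgG replicate 1 came from 1 coding site. Among the named genes, 11 had 1 library at 0, and a count of 0 there allowed a share of 0.0689% to 1.60%.

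Ribosomal protein genes stood lowest, with 12 of 58 tested higher without overlap (20.7%, below the 27.6% of all genes), 3 lower and a median of 0.51. Rps15 and Rps4x are proteins of the small ribosomal subunit. Rps15 had 0.405% and 0.220% with IgG against 0.968% and 0.849% with anti-G3BP1. Of its edited reads, 82.6% fell on 1 coding site, with 0 of 99 and 3 of 341 against 8 of 213 and 8 of 243. Rps4x had 1 of 1551 and 0 of 4351 against 8 of 3545 and 10 of 4580. Translation factors had 11 of 27 higher (40.7%) and 1 lower (median 0.52). Eif4g1, the scaffold of the cap-binding complex, had 1 of 1867 and 3 of 5669 against 22 of 7070 and 42 of 8540, and 22 of the 42 fell on 1 site. Eef2, the translocase of elongation, had 0.0823% and 0.0690% against 0.153% and 0.248%.

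Chromatin regulators had 12 of 32 higher (37.5%, beside 27.6% of all genes) and none lower (median 0.65). Chd4, the ATPase of the NuRD complex, had 0.0411% and 0.129% against 0.400% and 0.237%. Imprinted growth genes had 7 of 18 higher (38.9%) and 1 lower (median 0.77). Cdkn1c, an inhibitor of cyclin-dependent kinases, had 0 of 2446 and 9 of 8902 against 32 of 6956 and 32 of 8363, an equal number of edited reads in both anti-G3BP1 libraries. Nuclear long non-coding RNAs had 4 of 11 higher (36.4%) and none lower (median 0.75), and Miat had 0.111% and 0.212% against 0.508% and 0.349%. Mitochondrially encoded mRNAs had 4 of 10 higher (40%) and none lower (median 0.67). mt-Nd5, a subunit of complex I, had 8 of 16455 and 30 of 53539 against 77 of 27036 and 38 of 46274 and was called by edgeR's quasi-likelihood test, and by the quasi-binomial model without anti-G3BP1 replicate 2. mt-Nd2 had 1 of 6038 and 13 of 19792 against 8 of 10926 and 50 of 17633, with the opposite replicate the higher. Genes with known A-to-I editing had 4 of 13 higher (30.8%) and none lower (median 0.87). Among them, Flna, a filamin with a recoding site, had 3 of 2860 and 7 of 8799 against 16 of 7718 and 9 of 7817. Membrane and ER-translated genes had 12 of 34 higher (35.3%) and 1 lower (median 0.83). Lamp1, a lysosomal membrane protein of this list, had 0 of 1188 and 5 of 3536 against 12 of 2444 and 10 of 3199.

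**Figure D5:**
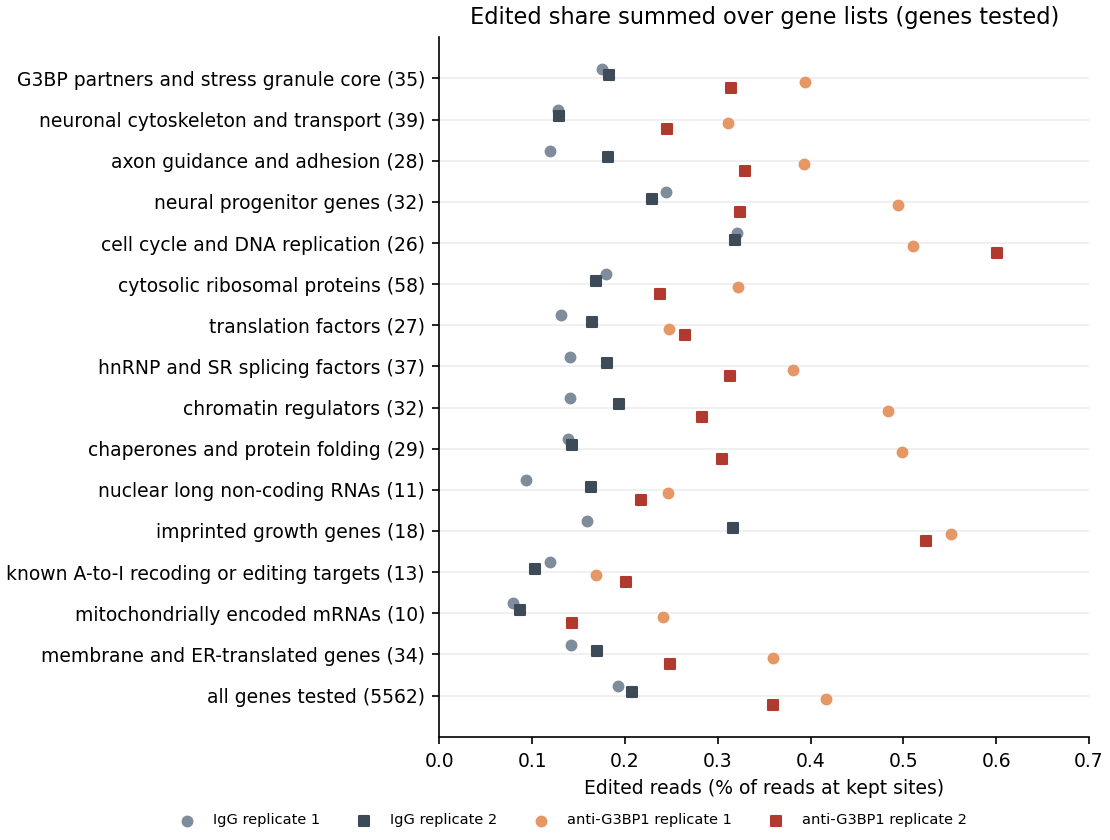
Edited reads as a percentage of reads at kept sites, summed over the tested genes of each list (horizontal axis), with the number of genes in brackets. Points are the 4 libraries. Both anti-G3BP1 libraries lie above both IgG libraries in all 15 lists.

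Summed over its genes, each of the 15 lists was higher in both anti-G3BP1 libraries than in both IgG libraries. The ratio ran from 1.61 in ribosomal protein genes to 2.85 in chaperones, beside 1.94 over all genes tested. The median reads per tested gene were above the 2345 of all genes in every list but cell cycle (2117.5). They ran up to 23722.5 in mitochondrially encoded mRNAs. Whether any list differs from the rest of the genes, and the part of depth in the counts without overlap, was not tested.

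The gain per gene was set against that of E16.5 brain, the other brain stage with the same 2 antibodies, over the sites read in all 8 libraries. None of 2802 genes differed at an adjusted p of 0.05 (0%) by the interaction term of the quasi-binomial model, 70 had an unadjusted p under 0.05, and the median difference was -0.22 on the log2 scale. The smallest p was for Ddx17, with mean shares of 0.0412% and 0.780% at E12.5 (IgG and anti-G3BP1) and 0.173% and 0.135% at E16.5 (log2 difference 3.88 ± 1.13, SE, adjusted p = 0.996). The next, Septin11, a filament-forming GTPase of neurites, lay the other way, with 0.676% and 0.0660% at E12.5 and 0.236% and 0.762% at E16.5.

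Expression was compared in the same libraries on log2(TPM + 1). Of 18010 genes, none passed an adjusted p of 0.05 with limma (0% higher and 0% lower), and 2452 had an unadjusted p under 0.05. Without overlap, 2655 genes (14.7%) were higher with anti-G3BP1 and 6064 (33.7%) lower, and the median change was -0.15. Transcript length moved with this: the median change of protein-coding genes was 0.03 for longest transcripts under 1000 bases (143 higher and 160 lower without overlap) and -0.31 for those over 8000 bases (30 higher and 480 lower). The part of length in the expression values was not tested. Without IgG replicate 2, limma called 152 genes higher and 22 lower, and without IgG replicate 1 it called 6 higher. G3bp1 stood at 148 and 163 TPM with IgG against 154 and 143 with anti-G3BP1, and its groups overlapped. Somatostatin (Sst), a neuropeptide of inhibitory neurons, was at 315 and 305 TPM with IgG against 141 and 149 with anti-G3BP1, and Barhl1, a transcription factor of hindbrain and other neurons, was at 78.5 and 73.5 against 27.4 and 26.9. The adjusted p from limma was 0.133 for both. Fam183b was at 24.0 and 15.6 TPM with IgG and listed at 0 in both anti-G3BP1 libraries, and Gchfr, which regulates tetrahydrobiopterin synthesis, was at 12.03 and 14.8 against 0 and 0. In bulk sections, fewer cells of a type and less RNA per cell cannot be told apart, and which brain levels each section held is not given in the sources used here.

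Annotated pseudogenes, most of them copies of processed mRNA, made up 7.999% and 6.98% of all TPM with IgG against 11.5% and 13.0% with anti-G3BP1. Of 1832 tested, 780 were higher without overlap (42.6%, against 14.7% of all genes) and 153 lower, with a median change of 0.64. The higher share held with TPM rescaled without mitochondrial genes or over protein-coding genes. Among genes at 10 TPM or more in the higher group, the 5 with the smallest p on the higher side were all pseudogenes, including Gm11223, at 1488 and 1386 TPM against 3683 and 4481. Because such copies are nearly identical to their parent genes, reads can be assigned to either, and these TPM are uncertain. In editing, the 1699 kept sites under them had 2.33% and 1.97% with IgG against 2.60% and 2.60% with anti-G3BP1 (ratio 1.21). Without the 48 of these sites that read as edited in 50% or more of reads in every library, the share was 0.228% and 0.259% against 0.547% and 0.449% (ratio 2.04). Mitochondrially encoded mRNAs went the other way in TPM, at 73853 and 75155 with IgG against 54314 and 59929 with anti-G3BP1.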

How the data were processed

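Poly(A) RNA-seq after MAPIT-seq was analysed from 4 E12.5 brain libraries, 2 with IgG and 2 with anti-G3BP1, grouped by the labels. The editing table deposited by the authors gives, for each site and library, the counts of edited reads and of all reads; the expression table deposited by the authors gives TPM per gene. HISAT2 2.2.1, BWA 0.7.17, GATK 4.5.0.0, Picard 3.1.1 and featureCounts 2.0.1 are named in the submitters' processing notes, with no settings; how duplicates were handled and which sites were listed is not stated. In anti-G3BP1 replicate 1, 5102 kept sites had 1 edited read, 4293 had 2 and 1231 had 3; whether single edited reads were filtered is not given in the sources used here.

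The table of 271487 rows held 104 repeats, which were removed, and 263989 unique sites, of which 3216 stood under more than 1 gene symbol and counted once in shares and once per gene. Sites with 10 or more reads in all 4 libraries were kept. Region and flanking sequence came from GENCODE vM21 transcripts (GRCm38), and no listed reference base disagreed with them. Per gene, a quasi-binomial model with 0.25 edited and 0.25 unedited reads added was fitted in R 4.3.3, with dispersion moderated by limma 3.58.1 and p-values adjusted by Benjamini-Hochberg over all genes; expression was tested with limma on log2(TPM + 1) over genes at 1 TPM or more in 2 libraries. edgeR 4.0.16 gave an alternative. All tests were two-sided. The per-gene editing test of the antibodies, with its limma and edgeR alternatives, and the expression test were run on simulated data, and the other tests were not.

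Named were the genes with the smallest p up to 15 among those whose groups did not overlap, up to 4 per list by p, G3bp1, G3bp2 and Caprin1, the interaction genes and 5 expression genes each way by p, and 12 sites by edited reads, at most 1 per gene; the text prints a selection. Lists and comparison were chosen with earlier results of these data known.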

Additional observations from a re-analysis of the deposited data

How the results depend on the processing

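The ratio of edited shares stayed above 1 under every alternative, from 1.63 (C-to-T alone) to 2.34 (A-to-G alone), and from 1.82 to 2.08 without each library in turn. The count of 0 genes higher in editing became 1 at 20 reads per site, over sites with an edited read and with 0.5 added reads (Chd7 each time), 1 with edgeR (mt-Nd5), and ran from 0 to 37 without each library (11 without anti-G3BP1 replicate 1 and 37 without replicate 2, where the lone library is assumed to vary like the IgG pair). The count of 0 lower became 1 with limma on the empirical logit and stayed 0 without each library. Against the median change, 1 gene higher and 1 lower were called at 20 reads per site and 9 lower over sites with an edited read, and from 0 to 18 higher (6 without anti-G3BP1 replicate 1) and 0 to 2 lower without each library. For sites of anti-G3BP1 alone, 328 became 89, 72 and 194 with 3 edited reads, equal depth and 20 reads, and 358 to 5492 without each library (against 13 to 3591 with the antibodies exchanged). Expression calls ran from 0 to 152 higher (6 without IgG replicate 1, 152 without IgG replicate 2) and 0 to 22 lower (without IgG replicate 2). Replicate numbers shared no pairing in the labels, and same-numbered deviations correlated at -0.0047 in editing; with a replicate block 0 genes were called higher and 0 lower in editing, and 1 higher and 0 lower in expression. No gene differed from E16.5 with A-to-G alone, with C-to-T alone or without E12.5 IgG replicate 1, the 3 alternatives run for it. Estimates turned negative for Gm14866 (-0.63 without sites edited in 50% or more and without the 100 most edited sites) and, with C-to-T alone, for Stmn2 (-1.16) and Plxna1 (-1.18). The cause of these moves was not tested. Alternatives without the top sites, with 1 alternative allele, without pseudogene sites, with 1 dispersion, with protein-coding scaling, without pseudogene sites of 50% or more, and without each library for single sites were chosen after seeing the data. The median gene had 0 to 2 edited reads per library.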

Other observations

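Some sites were strongly edited in 1 library and in no other. With 10 or more edited reads, a share of 20% or more and no edited read in the other 3 libraries, a criterion chosen after the values were seen, there were 47 such sites in anti-G3BP1 replicate 1 and 40 in replicate 2, against 5 and 1 in the IgG libraries. They held 3.61% and 3.17% of the edited reads of the anti-G3BP1 libraries, and 1.21% and 0.0589% of those of the IgG libraries. With 5 or more edited reads the numbers were 75 and 62 against 20 and 4, with 4.19% and 3.61% of the edited reads against 2.88% and 0.139%, so that by share IgG replicate 1 lay nearer to the anti-G3BP1 libraries than to IgG replicate 2. They were split between the kinds of edit, with 23 A-to-G and 24 C-to-T in replicate 1 and 17 and 23 in replicate 2, unlike the 274 A-to-G and 54 C-to-T of the sites that recurred. In Hs6st1, which encodes a heparan sulfate sulfotransferase, a 3′ UTR site was edited in 32 of 51 reads of anti-G3BP1 replicate 1 and in 0 of 34 of replicate 2. In Atp5d, a subunit of mitochondrial ATP synthase, a coding site was edited in 35 of 108 reads against 0 of 117. In the IgG libraries, Trap1, a mitochondrial Hsp90, had such a coding site with 22 of 40 edited reads in replicate 1.

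A further 56 sites read as edited in 50% or more of reads in every library. Their summed shares were 99.5% and 98.6% with IgG against 99.3% and 99.5% with anti-G3BP1. No untreated E12.5 brain library was among the samples, and whether the enzymes changed these sites was not tested. Of the 56, 48 lay under pseudogenes. One of the others lies in the coding sequence of Adarb1, which encodes the mouse ADAR2, at position 77303306 of chromosome 10, with 12 of 12 and 21 of 21 edited reads with IgG against 33 of 33 and 91 of 92 with anti-G3BP1. Among sites edited in both libraries of both antibodies, 2 lie 21 bases apart in the 3′ UTR of Plagl1, an imprinted zinc finger factor. The C-to-T site at position 13131457 of chromosome 10 was edited in 6 of 56 and 48 of 247 reads with IgG against 37 of 297 and 38 of 308 reads with anti-G3BP1, and that at 13131478 in 8.77% and 12.2% against 9.29% and 8.60%. Both sites overlapped between the antibodies. Hjurp, the chaperone of centromeric histone, had a 3′ UTR A-to-G site at 77.8% and 57.4% with IgG against 34.8% and 44.3% with anti-G3BP1, the IgG libraries being the higher.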
